A study of Homo sapiens with 2 samples.

Results

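The IFIT genes encode interferon-induced proteins with tetratricopeptide repeats and lie next to each other on the long arm of chromosome 10. IRF1 summits were examined at the members IFIT1, IFIT2, IFIT3 and IFIT5 in NB4 cells, an established human acute promyelocytic leukemia line with the PML-RARA fusion. Chromatin immunoprecipitation and sequencing of IRF1 was done on cells given all-trans retinoic acid (ATRA) and on control cells, with DMSO or ATRA applied for 4 hours per the labels, and each group held 1 library. One deposited list of binding summits, which carries the name of the ATRA library, was analysed, and the control library gave no values used here. The members' summits were taken by the authors' nearest-gene column at any distance, together with every summit on chromosome 10 between 89 and 90 Mb. This gave 7 of the 1986 summits in the list, of which 5 had an IFIT member as the nearest gene. A summit list holds no expression values, so the cell type label could not be checked against markers. The background used for calling the summits is not given in the sources used here, so the values below show no gain or loss under ATRA. With 1 library per group no test between conditions was possible and every value below is a description of this list.

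IFIT proteins are among the most strongly interferon-induced products of human cells. IFIT1 binds viral RNA whose cap lacks ribose methylation and blocks its translation, IFIT2 and IFIT3 form complexes with IFIT1, and IFIT5 binds RNA with exposed end phosphates. The genes are switched on through the interferon-stimulated response element (ISRE), a doubled GAAA sequence bound by IRF family members such as IRF1 and IRF9. IFIT3 is also listed in the deposited file under the alias RIG-G, for retinoic acid-induced gene G, a name it received from its induction by retinoic acid in this type of leukemia cell.

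The promoter sequences below were taken from RefSeq, build GRCh38.p14, and are shown because the summits fall on or beside them. Each is the 180 bases before an annotated transcription start, 5′ to 3′ on the plus strand, with matches to an ISRE-type motif in capitals. The motif is GAAA, any 2 bases, then GAAA, on either strand, and all matches shown read as its reverse complement, TTTC, any 2 bases, TTTC. The match that crosses the IFIT5 start is cut off after TTTC. IFIT3 has a pair of annotated starts, and IFIT1B is the family gene with no summit. IFIT2 has no entry in the promoter table.

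IFIT1, chr10:89392443-89392622: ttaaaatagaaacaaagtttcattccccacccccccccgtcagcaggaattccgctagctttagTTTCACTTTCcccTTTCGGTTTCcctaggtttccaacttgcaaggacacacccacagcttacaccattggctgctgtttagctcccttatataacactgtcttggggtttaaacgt
IFIT3 at the first start, chr10:89327817-89327996: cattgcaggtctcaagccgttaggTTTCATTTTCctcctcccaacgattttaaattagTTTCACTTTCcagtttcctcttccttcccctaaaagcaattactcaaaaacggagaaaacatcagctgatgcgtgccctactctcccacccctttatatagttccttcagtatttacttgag
IFIT3 at the second start, chr10:89332349-89332528: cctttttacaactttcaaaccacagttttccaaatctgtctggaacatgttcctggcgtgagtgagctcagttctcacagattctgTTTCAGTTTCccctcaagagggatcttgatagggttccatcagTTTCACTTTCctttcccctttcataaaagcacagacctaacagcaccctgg
IFIT5, chr10:89414388-89414567: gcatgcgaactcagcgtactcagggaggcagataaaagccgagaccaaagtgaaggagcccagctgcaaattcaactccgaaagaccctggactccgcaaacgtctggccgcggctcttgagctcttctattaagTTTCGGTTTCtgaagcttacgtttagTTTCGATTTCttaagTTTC
IFIT1B, chr10:89377876-89378055: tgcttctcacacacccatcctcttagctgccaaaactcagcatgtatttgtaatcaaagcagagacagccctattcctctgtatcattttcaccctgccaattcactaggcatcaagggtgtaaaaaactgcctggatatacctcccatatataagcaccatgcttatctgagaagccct

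All 4 members had a summit within 1 kb of their transcription start site (TSS) by the authors' annotation. Of 19974 protein-coding genes on the autosomes or the X chromosome, 2.03% had such a summit within 1 kb and 3.36% within 10 kb. At 3 members, IFIT1, IFIT2 and IFIT3, a summit lay within 100 bp of the authors' TSS, against 0.931% of protein-coding genes. The members were chosen with earlier results of these data known, and IFIT1B, the family gene with no summit, is not among them. Their count is therefore no independent result beside the shares of all genes. IFIT3 had 2 summits and the other members 1 each. Among the 405 protein-coding genes with a summit within 1 kb, 28 (6.91%) had more than 1.

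IFIT1, the cap-sensing member, had the highest summit of the family. It lay at chromosome 10 position 89392502, at -44 bp from the authors' TSS and in the promoter class, with a peak score of 76.5. The score is the authors' own value on a scale that the file headers do not state, and the list ran from 8.28 to 321 with a median of 25.2. The IFIT1 summit ranked 257 of 1986 and exceeded 87.1% of the list, and among the 539 summits within 1 kb of a TSS it ranked 99.

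IFIT3, the partner that stabilises IFIT1 on RNA, carried a summit at each of its annotated starts, 4637 bp apart. The summit at the second start, position 89332469, was at -10 bp from the authors' TSS and scored 51.8, rank 415, above 79.1% of the list. The summit at the first start, position 89327832, was at 13 bp and scored 16.2, rank 1618, above 17.4% of the list. The first start thus had the weakest summit of the family, below the lower quartile of 17.7, and it shared its exact score with others, 23 summits in all. Both were classed as promoter, each for a different RefSeq transcript of IFIT3.

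IFIT2, a member linked to apoptosis, had a summit at position 89301956, at 7 bp from the authors' TSS and in the promoter class. Its score was 25.4, rank 976, above 50.8% of the list. IFIT5 had a summit at position 89414787 with a score of 23.9, rank 1041, above 47.3% of the list. IFIT2 and IFIT5 were therefore in the middle of the list, and the 5 scores of the family spanned 4.71-fold. The median of the members' best scores was 38.6, beside 28.8 over the 672 protein-coding genes with a summit within 10 kb. Without replicate libraries the error of a single score is unknown, so the order of the members is that of this list alone.

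**Figure D1:**
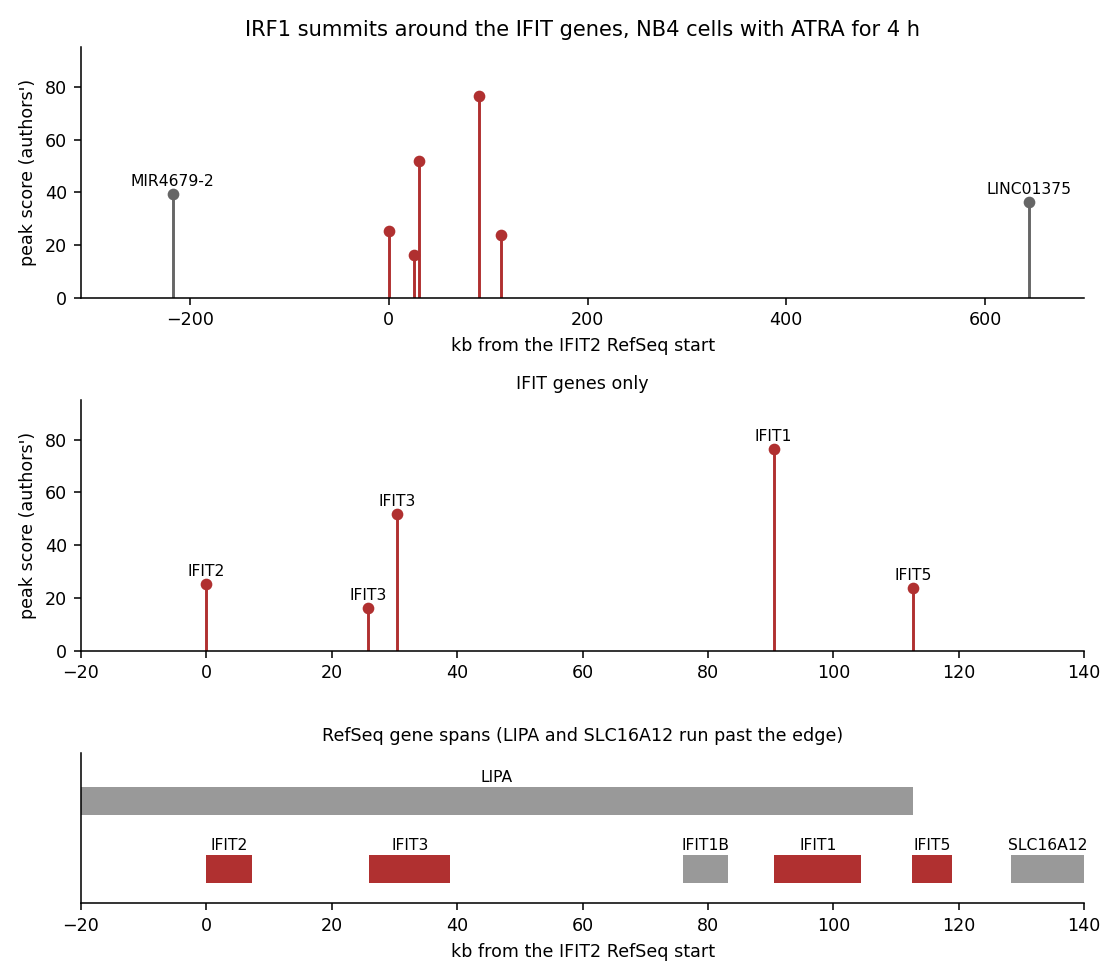
Peak score (vertical, the authors' scale) of each summit on chromosome 10 between 89 and 90 Mb against distance in kb from the IFIT2 RefSeq start, with the IFIT region enlarged in the middle panel and RefSeq gene spans in the lower panel. Red marks IFIT members and grey other genes. IFIT1 (76.5) and the second start of IFIT3 (51.8) stand above the other summits of the window, and none lies at IFIT1B.

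**Figure D2:**
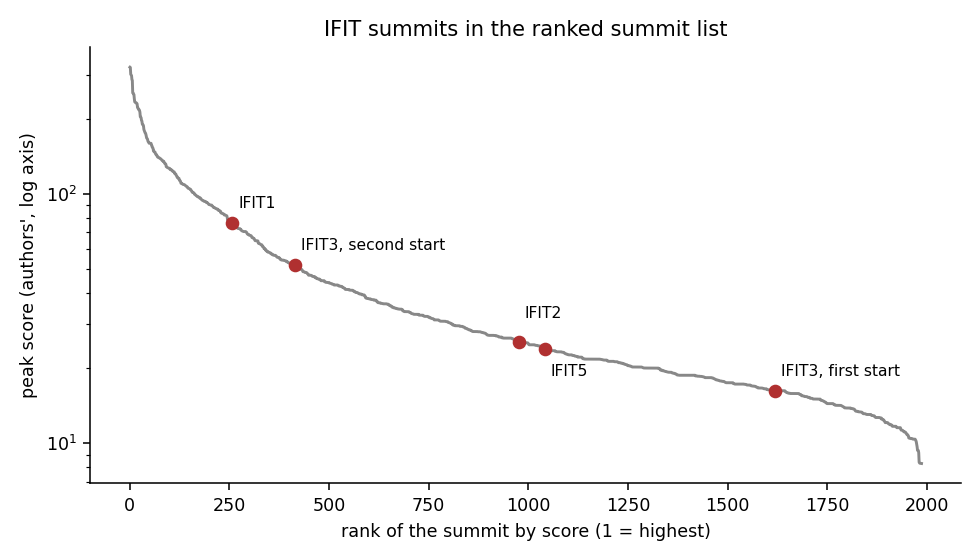
Peak score (log axis, the authors' scale) of all 1986 summits against rank, with the 5 IFIT summits in red. IFIT1 and the second start of IFIT3 lie above the upper quartile of 44.0, and the first start of IFIT3 lies below the lower quartile of 17.7.

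The 5 member summits were spread over 112.8 kb. In genomic order they followed IFIT2, IFIT3 first start, IFIT3 second start, IFIT1 and IFIT5, with gaps of 25.9 kb, 4.64 kb, 60.0 kb and 22.3 kb. The widest gap holds IFIT1B (89378056 to 89385205), and the nearest summit to its span, that of IFIT1, was 7.30 kb away. IFIT1B was the only one of the 5 protein-coding family genes here that was the nearest gene of no summit. Groups of 5 neighbouring protein-coding genes with at least 4 called within 10 kb numbered 5 of 19882 (0.0251%). They were the IFIT group, a pair of overlapping groups with TAP2, PSMB8, TAP1 and PSMB9, and a pair of overlapping groups within APOBEC3. These groups were counted after the IFIT values had been seen.

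The other 2 summits of the window lay far from the family. One, at position 89084575 with a score of 39.6, was intergenic in the authors' annotation, at -21164 bp from MIR4679-2, a microRNA gene, and 217.4 kb before the IFIT2 summit. RefSeq places the non-coding RNA LOC124902552 over this position. The other, at 89946323 with a score of 36.3, lay in intron 3 of 3 of the non-coding RNA LINC01375, at 11050 bp from its TSS and 531.5 kb after the IFIT5 summit. The authors' detailed annotation names a DNA transposon of the hAT-Blackjack class there, whereas it names no repeat at any of the 5 IFIT summits.

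With 7 summits, the window was 1 of 9 windows of 1 Mb out of 3043 that held 7 or more (0.296%), and 63.3% of windows held none. The fullest, on chromosome 21, held 135. The IFIT window was chosen for the family with earlier results of these data known, and 5 of its summits are those of members. Its place among the windows is therefore no independent result. The nearest summit before the window was assigned to FAS, a death receptor gene, at position 88975149 (score 37.6), 109.4 kb from the first summit inside. The nearest after it was assigned to PCGF5, a Polycomb group gene, at position 91198968 (33.6), 1252645 bp from the last summit inside. No summit in the window had CH25H, the interferon-induced cholesterol 25-hydroxylase, SLC16A12, PANK1, a pantothenate kinase gene, or KIF20B, a kinesin gene, as the nearest gene. The nearest window summit was 94.6 kb from the CH25H span, 15.5 kb from SLC16A12, 165 kb from PANK1 and 171 kb from KIF20B.

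LIPA, which encodes lysosomal acid lipase, is also the nearest gene of no summit in the authors' nearest-gene column. It nevertheless runs across the family on the minus strand. Its RefSeq span (89213572 to 89414679) covers 4 summits, those of IFIT2, IFIT3 and IFIT1. Its outermost start lies head to head with IFIT5, and the spans of both genes overlap at their starts, with the end of the LIPA span 111 bp past the IFIT5 start. The IFIT5 summit lay 219 bp downstream of the IFIT5 start, in exon 1 of 2 within the 5′ UTR, and 108 bp upstream of the LIPA start. By RefSeq starts LIPA was thus the nearer gene, whereas the authors' column gives IFIT5. Which of these 2 genes the summit belongs to cannot be told apart from position. The IFIT2 summit similarly lay 53 bp from the end of the span of the non-coding RNA LOC105378419.

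Distances were also measured from RefSeq GRCh38.p14 starts, because the authors' annotation places the starts of IFIT1, IFIT2 and IFIT3 elsewhere. The RefSeq starts lay 77 bp downstream of the authors' TSS for IFIT1, 97 bp for IFIT2, and 178 bp and 50 bp for the first and second starts of IFIT3, while that of IFIT5 was the same. From RefSeq starts the IFIT2 summit was at -90 bp instead of 7 bp, with the gene taken to be on the plus strand, and the IFIT3 summits were at -165 bp and -60 bp. IFIT1 was at -121 bp, so by RefSeq starts only IFIT2 and the second start of IFIT3 had a summit within 100 bp. By these starts 4 of the 5 summits were upstream of transcription and IFIT5 alone was downstream.

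The ISRE-type motif was present in all 4 RefSeq promoter windows of the members, which cover IFIT1, IFIT5 and both starts of IFIT3. A window runs from 250 bases before the start to 50 bases from it onwards. Both strands were searched in 34789 windows of the autosomes and chromosome X, of which 3.57% held the motif. Among the 299 windows that contain a summit 38.5% did, and among the other 34490 windows 3.27% did. The IFIT1 window and both IFIT3 windows held 2 matches each, the IFIT5 window held 3 and the IFIT1B window none. A missing match says only that these letters are not in that window.

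The matches lay beside the summits at IFIT1 and IFIT3. At IFIT1 the match TTTCACTTTC began 5 bp from the summit, at chr10:89392507-89392516, and TTTCGGTTTC began 18 bp from it. At the second start of IFIT3 the match TTTCACTTTC began 9 bp from the summit and TTTCAGTTTC lay 25 bp from it on the other side. At the first start of IFIT3 the nearest match was TTTCATTTTC, 9 bp from the summit, and TTTCACTTTC lay 43 bp from it. All these distances are shorter than the 250 to 450 bp to which libraries were size-selected per the labels.

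IFIT5 had its matches on the other side of the start from its summit, or at the start. Its 3 matches ran from -45 to 5 bp around the RefSeq start (0 being the first transcribed base), the last of them crossing it, and the nearest was 214 bp from the summit. The window at the outermost LIPA start, which contains the IFIT5 summit, held no match. With a looser motif, AA, any 2 bases, then GAAA, it held 1 match, 25 bp from the summit. That motif was in 22.8% of all windows and in 64.9% of the 299 windows that contain a summit.

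**Figure D3:**
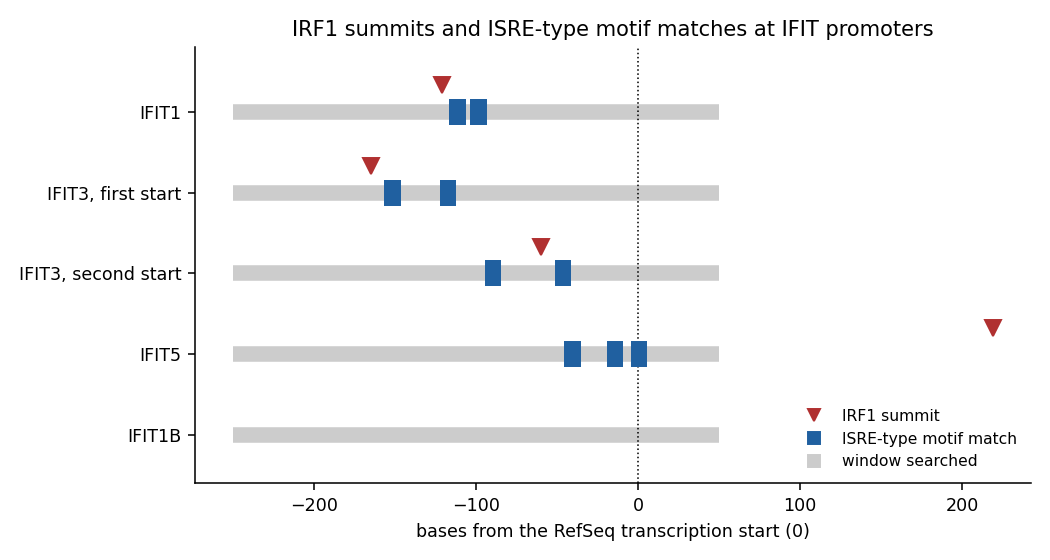
Position of IRF1 summits (red triangles) and ISRE-type motif matches (blue) in bases from the RefSeq transcription start, over the window searched (grey), for each IFIT promoter with a sequence entry. Matches stand 5 to 9 bp from the summit at IFIT1 and both starts of IFIT3, the IFIT5 summit is 214 bp past its nearest match, and IFIT1B has neither summit nor match.

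Over the whole list, 255 summits lay in at least 1 promoter window, and 98 of them (38.4%) shared the window with the ISRE-type motif. The median distance from such a summit to the centre of the nearest match was 15.5 bp, and 60 of the 98 were within 20 bp. IFIT1, at 9.5 bp from the centre, and both IFIT3 summits, at 13.5 bp, were on the near side of that median. Their placing was thus that of most motif-bearing promoters in the list.

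**Figure D4:**
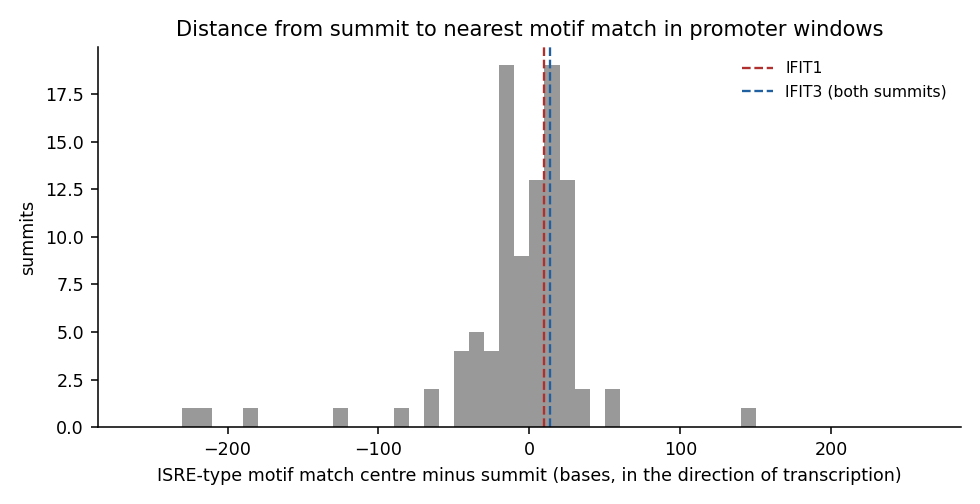
Number of summits (vertical) by the distance in bases from the summit to the centre of the nearest ISRE-type motif match, along the direction of transcription, for the 98 summits that share a promoter window with a match. Dashed lines mark IFIT1 (9.5 bp) and both IFIT3 summits (13.5 bp each), inside the central peak of the distribution.

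The longest identical stretches between members' promoters were at the motif. The longest run of bases common to the IFIT1 and both IFIT3 windows was AGTTTCACTTTCC, 13 bases long, and IFIT1 and the first start of IFIT3 shared 15 (TTAGTTTCACTTTCC). IFIT5 shared 10 with IFIT1 and 11 with each IFIT3 window, and IFIT1B shared 8 to 10 with the others. The run AGTTTCACTTTCC occurred in 4 of 34789 windows (0.0115%), namely those of IFIT1 and IFIT3 and that of NPR3, a natriuretic peptide receptor gene whose window held no summit. This run was picked out after the sequences had been seen. The treatment of reads matching several sites is not given in the sources used here.

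Each member's score was set beside those ranked next to it. Just above IFIT1 were PML, the nuclear body gene of the fusion (77.2, at 125 bp), and MIA3 (77.1, at 32 bp), and just below it were ABL2 and KCNJ1 (76.2 each, both more than 10 kb from the TSS). Beside the second start of IFIT3 were SC5D and PNPT1 above (51.8 each) and LINC02402 and PARP11 below (51.5 and 51.4). PNPT1, a mitochondrial RNA-degrading enzyme, had its summit at 24 bp. The summits assigned to SC5D, LINC02402 and PARP11 were intergenic, at 74798 bp, -49340 bp and -154128 bp from the TSS. IFIT2 stood next to NAXD, BCL2L11, SLCO2A1 and PABIR3, of which BCL2L11, the proapoptotic BIM gene, and SLCO2A1 had the same score of 25.4. The summits of NAXD and SLCO2A1 were more than 10 kb from the TSS. IFIT5 stood next to GABRA4, whose summit was more than 10 kb from the TSS, and to TNFRSF10A-DT, SP2 and H3C15, at 23.9 each. It shared its exact score with others, 6 summits in all, so the order among those is arbitrary. Promoter and distal summits thus occurred side by side at these scores.

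Other genes of the antiviral response were read in the same way. They were listed by hand with earlier results of these data known, so their count is a description only. Of 50 listed antiviral effector genes 32 had a summit within 10 kb as the gene closest to it (64.0%, against 3.36% of protein-coding genes). Their best scores ran from 10.4 to 320.5 with a median of 92.5, and SHFL, PARP12, ISG15, PARP9 and APOL2 were the highest. IFIT1 was thus below the median of the effectors that had a summit, as were the other members. CH25H, the listed effector inside the IFIT window, was among those without one. Of the gene families in tandem, APOL had a summit within 10 kb at 4 of 5 genes (best scores 139 to 233) and APOBEC3 at 4 of 7 (15.8 to 109). By the same limit OAS had one at 2 of 3 (23.2 and 97.8), GBP at 2 of 5 (30.7 and 49.0) and IFITM at 0 of 4. Within 1 kb GBP had none, its summits lying at -4756 bp and -2847 bp, and the other counts were the same. These counts are set side by side without a test of the difference, and some genes of these families are also in the effector list.

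Genes upstream of IFIT induction were also listed by hand with earlier results of these data known. Of these 26 genes, 10 had a summit within 10 kb (38.5%, against 3.36% of protein-coding genes). All 10 had it within 1 kb, against 2.03% of protein-coding genes, and the median best score was 68.6. The RNA sensor RIGI had 173, the feedback inhibitor SOCS1 128, the sensor regulator DHX58 126 and the signal transducer STAT2 74.8. IFIH1, the sensor of long double-stranded RNA, had 59.8 and IRF7 45.7. IRF9, the DNA-binding partner of STAT2 on the ISRE, had none, nor had IRF3, MAVS or TBK1, which can induce IFIT genes without interferon. IRF1 itself was the nearest gene of 1 summit, beyond 10 kb. Of 10 listed genes for RNA caps, translation initiation and RNA or DNA sensing, the cap methyltransferase CMTR1 (54.3, at 131 bp) and the helicase DDX3X (36.5, at -1579 bp) had a summit within 10 kb. That was 20% of this list, against 3.36% of protein-coding genes, and within 1 kb CMTR1 alone remained. STING1, MAVS and TBK1 are in this list and in the upstream list.

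**Figure D5:**
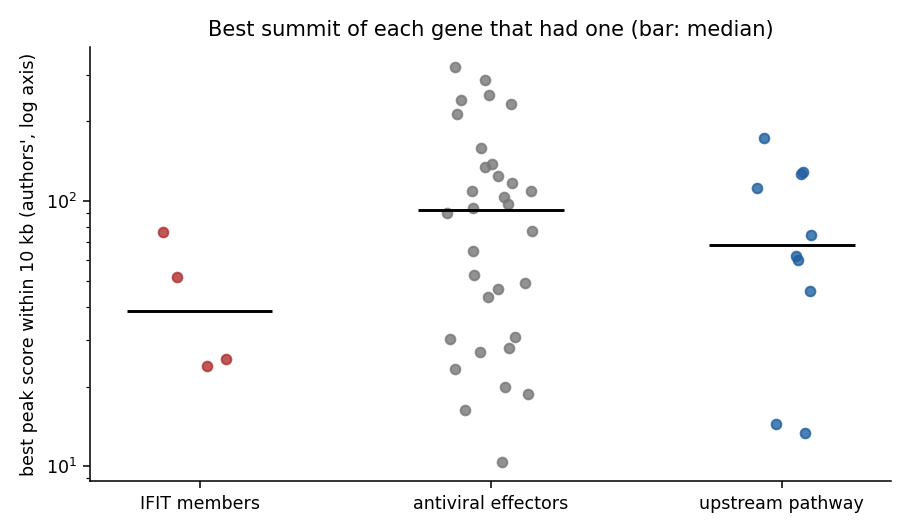
Best peak score within 10 kb of the TSS (log axis, the authors' scale) of each gene that had a summit, for the 4 IFIT members, 32 antiviral effectors and 10 upstream pathway genes, with the median as a bar. The medians were 38.6, 92.5 and 68.6.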

How the data were processed

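IRF1 ChIP-seq summits of 1 ATRA library were analysed. Per the submitters' processing notes, the build was hg38 and the tools named are Bowtie2 2.2.9 and MACS 1.4.2, and per the file headers the summits were annotated with HOMER's annotatePeaks.pl. The deposited peak score is the authors' value and its scale is not stated. Read depth behind a summit is unknown. Positions are 1-based on hg38, and no genome sequence beyond the RefSeq promoter table was used.

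Nearest genes of 1977 of 1986 summits were matched by Entrez identifier to RefSeq GRCh38.p14, and all 4 members were matched. A gene was called if the authors list it as nearest to a summit at most 10 kb from its TSS. Motif matches were searched on both strands, and the search was tested on simulated sequences. The genes named were all genes of the window, the 2 summits ranked above and below each member's best summit, and the 5 highest of both pathway lists, and others were chosen after their values were seen. Some genes that this rule takes are left out of the text. The members and lists were chosen with earlier results of these data known. Python 3.11.15, pandas 2.3.3 and matplotlib 3.10.9 were used.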

Additional observations from a re-analysis of the deposited data

How the results depend on the processing

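No paired analysis was possible because there was a single library in each group, and no replicate could be left out. The count of 4 members with a summit was 4 within 1 kb. It was also 4 with gene spans extended by 10 kb, which is no check because every member had a summit within 1 kb of its start. It was 3 within 100 bp (without IFIT5) and among the 993 highest summits (without IFIT5). At any distance it was 4, which is no check because all 4 members were already called within 10 kb. The 7 window summits were 5 among the 993 highest. They were 5 in the family span with 10 kb added, which was fixed because the remaining summits lay far from the family. Merging summits under 200 bp apart left 7, which was fixed because the smallest gap in the window was 4637 bp. The effector count of 32 ranged from 21 (within 100 bp) to 35 (gene spans extended by 10 kb), and the upstream count of 10 from 7 (within 100 bp) to 12 (any distance). For both lists the 100 bp limit and the extended spans were added after seeing the data. All 4 promoter windows kept a match before the start only, and with a stricter motif that fixes T as the base before the second GAAA. They also kept the looser motif, which is no check because every match to the main motif contains it. The run shared by IFIT1 and IFIT3 was in 3 windows, which was fixed because it was defined from those windows. Measured from RefSeq starts, an alternative added after seeing the data, the sign of the distance turned for IFIT2 (-90 bp) and for the first start of IFIT3 (-165 bp), because the annotated starts differ. By those starts the IFIT1 summit was at -121 bp, which left IFIT2 and IFIT3 alone with a summit within 100 bp. The IFIT5 summit was nearer to the LIPA start (108 bp) than to that of IFIT5 (219 bp). The count of 4 members therefore rests on the authors' nearest-gene column. Leaving out the dense chromosome 21 summits moved the median percentile of the members' best scores to 63.5, against 64.9. Summits of weaker sites below the authors' unknown threshold are not in the list, so a gene without a summit is not shown to be unbound.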
